A study of Mus musculus with 16 samples.

Results

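The genes described here are 10 components of bone morphogenetic protein (BMP) signaling, of 37149 genes tested on the array. They were the ligands Bmp4 and Bmp2, the receptor Bmpr1a, the secreted antagonists Nog and Cer1, the inhibitory Smads Smad6 and Smad7, and the target genes Id1, Id2 and Id3. The genes were listed by name for their place in the pathway, with earlier results of these data known, and the brightest probe stood for a gene. Of these genes, 9 have a single probe on the array. Bmp4 has 2 probes, and the second of them was not above background on any of the 16 arrays, so the brighter one was used.

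The cells were made from mouse embryonic stem (ES) cells that differentiated in culture towards blood, and the question was how the loss of the transcription factor Sp1 changes gene expression on that path. Genotypes were Sp1+/+, whose titles read E14, and Sp1-/-, and the strain label of both is C57BL/6. The Sp1-/- cells make a shortened Sp1 protein without its DNA-binding domain, and they are a single ES cell clone. In each genotype 4 populations were profiled. Flk1+ cells, enriched for hemangioblasts, came from embryoid bodies by magnetic sorting. The other 3 were sorted on day 2 of blast cultures of such cells. The medium of both genotypes held serum, conditioned medium, ascorbic acid, vascular endothelial growth factor and interleukin 6. Steps among these 3 populations therefore compare cells sorted on the same day and not successive times. HE1 (KIT+ CD41- Tie2+) and HE2 (KIT+ CD41+ Tie2+) are successive stages of hemogenic endothelium, and progenitors (KIT+ CD41+ Tie2-) have lost the endothelial marker Tie2. Each of the 8 groups had 2 arrays, described in the record and the study as biological replicates, while a legend of the study speaks of technical replicates that were averaged without saying which these were, so that the p-values measure only the spread between these arrays. The 8 Sp1+/+ arrays shared a slide, the 8 Sp1-/- arrays had their own, and genotype and slide cannot be told apart, whereas changes between populations of 1 genotype lie within a slide.

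BMP ligands of the transforming growth factor beta superfamily bind pairs of type I and type II receptors, and these phosphorylate Smad1, Smad5 and Smad9, which enter the nucleus with Smad4. Targets include the Id genes, whose products block basic helix-loop-helix transcription factors, and Smad6 and Smad7, which feed back to dampen the pathway, while Noggin (Nog) and Cerberus (Cer1) bind ligand outside the cell. In the embryo BMP4 is needed for mesoderm and for blood formation from it, and the signal is later reduced as blood cells mature.

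Arrays were of even quality, with 67.0% to 77.1% of spots well above background, no saturated spot and a correlation of 0.990 to 0.997 between the 2 arrays of a group. Single genes could still differ widely between these 2 arrays, as Hba-x in Sp1+/+ HE1 (13.49 and 7.55) and Sox17 in Sp1+/+ progenitors (9.61 and 6.55). Sp1 itself read 12.14 to 12.56 on the Sp1+/+ arrays and 9.03 to 10.29 on the Sp1-/- arrays, in log2 intensity. The reading of its probe was thus lower under the label Sp1-/- on every array while still above background. Whether the probe lies in the part of the transcript altered by the mutation was not examined. Markers of the sorted populations differed between them. T and Mesp1, genes of early mesoderm, read 12.14 to 14.68 in Flk1+ cells and 5.8 to 6.60 in all other populations, and Tek, which encodes Tie2, was highest in HE1 (11.65 to 12.50) and at most 9.62 in progenitors. Itga2b, which encodes CD41, already read 10.60 to 11.43 in the CD41- HE1 cells, above Flk1+ cells (7.37 to 8.30). Kdr, which encodes Flk1, stayed between 13.56 and 15.37 in all groups.

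Throughout, levels are the deposited log2 intensities, which can be compared between arrays for 1 gene but not between genes. A call needed at least a 2-fold difference with an unadjusted p no higher than 0.01 in limma, with 1 coefficient for each group, and adjusted p denotes the Benjamini-Hochberg value over all 37149 genes. Genes at an unadjusted p of 0.05 or less are named as description only, since the share of all genes at that threshold was not counted.

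Between the genotypes, members called numbered 1 among Flk1+ cells, where 1.64% of all genes were called, 0 for HE1 (2.10% of all genes), 1 for HE2 (1.95%) and 5 for progenitors (4.10%). In Flk1+ cells the gene was Cer1, which was higher in Sp1-/- cells. In HE2 it was Nog, also higher in Sp1-/- cells. In progenitors Bmp4, Bmpr1a, Id1 and Id3 were lower and Nog was higher in Sp1-/- cells. Among HE1 arrays, 2 members had an unadjusted p of 0.05 or less, Bmp2 and Id1, and neither reached 2-fold. The median difference of the 10 members was -0.10, -0.13, -0.32 and -0.73 in the 4 populations from Flk1+ cells to progenitors, whereas the median of all genes was 0.01 to 0.02.

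**Figure D1:**
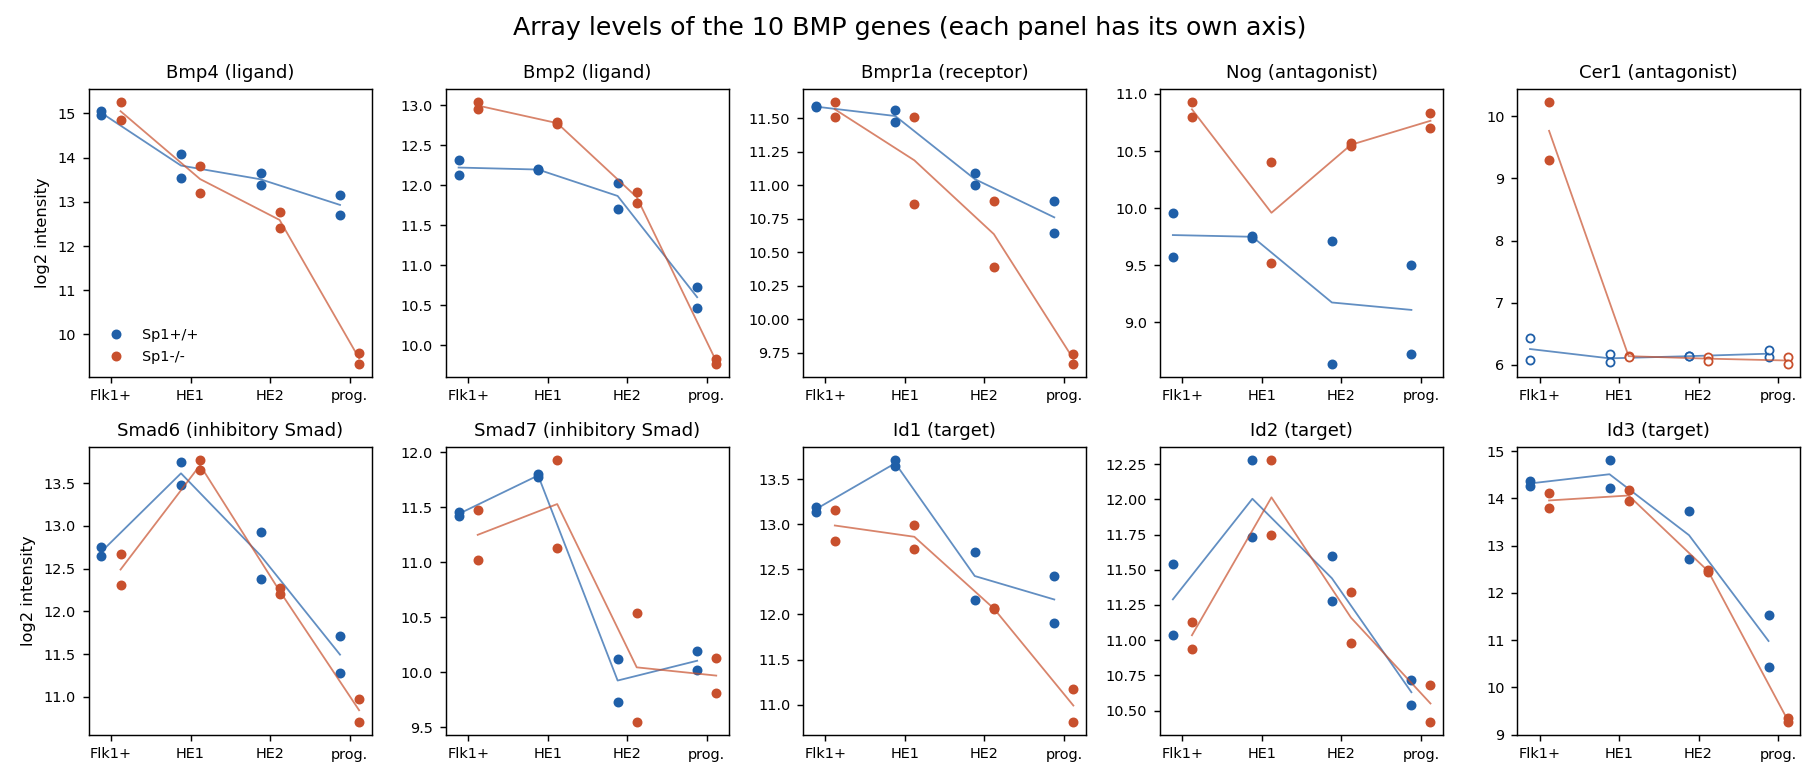
Log2 intensity (vertical axes, 1 per gene) of the 10 members in the 4 populations (horizontal axes), with a point for each array, lines through the means of 2 arrays, Sp1+/+ in blue and Sp1-/- in orange. Open points mark groups in which the probe was not well above background on both arrays. Bmp4 falls to 9.34 and 9.58 in Sp1-/- progenitors against 12.71 and 13.15 in Sp1+/+ progenitors, and Cer1 leaves the background only in Flk1+ cells.

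Bmp4, the ligand that induces and patterns mesoderm, had the largest genotype difference of any member in progenitors, and is shown with its promoter for that reason. The sequence is the 250 bases before the RefSeq start, at chr14:46390670-46390919 on the minus strand of GRCm38.p6, 5′ to 3′, with capitals marking the GC box GGGCGG or its reverse complement CCGCCC, the letters bound by Sp1 and its relatives:
Bmp4: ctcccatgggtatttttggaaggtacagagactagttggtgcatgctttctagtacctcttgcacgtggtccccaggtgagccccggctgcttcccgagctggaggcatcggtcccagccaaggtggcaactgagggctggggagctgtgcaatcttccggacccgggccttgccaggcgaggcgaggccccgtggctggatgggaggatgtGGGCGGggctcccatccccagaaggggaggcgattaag
It holds 1 GC box, 38 bases before the start. Of 32851 mouse promoter windows of the same length, 32.7% hold at least 1.

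In Flk1+ cells Bmp4 read 15.06 and 14.96 on the Sp1+/+ arrays and 14.84 and 15.26 on the Sp1-/- arrays. The genotypes overlapped there, with a difference of 0.04 (95% interval -0.52 to 0.60). HE1 arrays read 14.09 and 13.55 in Sp1+/+ cells and 13.82 and 13.21 in Sp1-/- cells, which again overlap. In HE2 the readings were 13.65 and 13.37 against 12.78 and 12.40. These did not overlap, and the difference of -0.92 ± 0.25 (SE) had an unadjusted p of 0.0041 but stayed below 2-fold. Progenitors read 13.15 and 12.71 in Sp1+/+ cells and 9.34 and 9.58 in Sp1-/- cells. Bmp4 was thus 11.1-fold lower in Sp1-/- progenitors (log2 difference -3.47 ± 0.25, adjusted p = 1.34e-05). Averaging both Bmp4 probes, of which the second is at background, gave -1.65 for the same difference.

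In both genotypes mean Bmp4 fell at each step in the order from Flk1+ cells to progenitors, and some of these steps were called. From Flk1+ cells to HE1 it fell 2.28-fold in Sp1+/+ cells (adjusted p = 0.0047) and 2.90-fold in Sp1-/- cells (adjusted p = 0.00083). The Sp1+/+ step was lost as a call without replicate 2 of Sp1+/+ HE1, when it was -0.92. From HE2 to progenitors the change was -0.58 in Sp1+/+ cells, which was not called, and -3.13 in Sp1-/- cells, where Bmp4 fell 8.75-fold (adjusted p = 3.97e-05). The genotype difference itself changed by -2.55 ± 0.36 between HE2 and progenitors (adjusted p = 0.013).

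Bmp2, a ligand close to Bmp4 in sequence and receptor use, differed between genotypes in opposite directions early and late. In Flk1+ cells it read 12.31 and 12.13 in Sp1+/+ cells and 12.95 and 13.04 in Sp1-/- cells, and in HE1 12.19 and 12.20 against 12.79 and 12.76. In both populations every Sp1-/- array lay above both Sp1+/+ arrays, by 0.78 ± 0.12 (1.71-fold, adjusted p = 0.0041) and 0.58 ± 0.12 (1.49-fold, adjusted p = 0.016). In HE2 the readings were 11.70 and 12.03 against 11.92 and 11.78 and overlapped. In progenitors they were 10.73 and 10.47 against 9.77 and 9.83, with Sp1-/- cells 1.74-fold lower (-0.80 ± 0.12, adjusted p = 0.0015). None of these differences reached 2-fold, so none was called. The change of the genotype difference from Flk1+ cells to progenitors, -1.58 ± 0.18, was called (adjusted p = 0.0010).

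Over the populations Bmp2 fell late. In Sp1+/+ cells Flk1+ cells and HE1 overlapped, and the drop from HE2 to progenitors was 2.40-fold (adjusted p = 0.00028). In Sp1-/- cells the levels of neighboring populations did not overlap, and the drop from HE2 to progenitors was 4.14-fold (adjusted p = 1.12e-05).

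Bmpr1a encodes the type I receptor ALK3, which binds BMP2 and BMP4. The genotypes overlapped in Flk1+ cells, at 11.58 and 11.59 in Sp1+/+ cells and 11.51 and 11.62 in Sp1-/- cells. HE1 read 11.47 and 11.56 against 11.51 and 10.86, and HE2 11 and 11.09 against 10.88 and 10.39, with wide spread between the Sp1-/- arrays. In progenitors the Sp1+/+ arrays read 10.88 and 10.64 and the Sp1-/- arrays 9.67 and 9.74, without overlap. Bmpr1a was 2.08-fold lower in Sp1-/- progenitors (-1.06 ± 0.20, adjusted p = 0.0048). This lies just past 2-fold, and without replicate 1 of Sp1+/+ progenitors the difference was -0.94 and not called. No step between neighboring populations was called for Bmpr1a in either genotype, the widest being -0.93 from HE2 to progenitors in Sp1-/- cells.

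Cer1 encodes Cerberus, which is secreted by anterior endoderm and binds BMP and Nodal ligands. Its promoter is shown because Cer1 had the largest genotype difference of the members in Flk1+ cells. The window lies at chr4:82885152-82885401 on the minus strand of GRCm38.p6, written as above:
Cer1: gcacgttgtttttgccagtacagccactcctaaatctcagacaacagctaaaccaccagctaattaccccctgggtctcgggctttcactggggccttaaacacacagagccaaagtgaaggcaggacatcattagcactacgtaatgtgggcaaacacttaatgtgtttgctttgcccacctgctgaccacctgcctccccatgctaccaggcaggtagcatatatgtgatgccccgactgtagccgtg
These letters contain no GC box, and bases outside the window were not searched. The study counts Cer1 among the Sp1 targets from its binding data, where sites could also lie outside such a window.

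In Flk1+ cells Cer1 read 6.43 and 6.08 in Sp1+/+ cells and 10.23 and 9.30 in Sp1-/- cells. Both Sp1-/- arrays stood far above both Sp1+/+ arrays, of which 1 was well above background, and the difference was 3.51 ± 0.23 (11.4-fold, adjusted p = 1.79e-05). With processed signals scaled to the 75th percentile it was 6.85, and the size of the change therefore depends on how the dim Sp1+/+ values are treated. In HE1, HE2 and progenitors Cer1 read 6.02 to 6.24 in both genotypes and was not well above background on any array. From Flk1+ cells to HE1 it decreased at least 12.3-fold in Sp1-/- cells (adjusted p = 9.27e-07). The genotype difference changed by -3.48 ± 0.32 between these populations (adjusted p = 0.0012).

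Markers of other cells differed in the same Flk1+ arrays. Of 8 markers of definitive or visceral endoderm, 4 were higher in Sp1-/- Flk1+ cells. These were, with their log2 differences, Foxa2 (2.68), Foxa1 (1.41), Gsc (1.23) and Hnf4a, which was not well above background in Sp1+/+ cells and was at least 2.03-fold higher. Ttr, Afp, Apoa1 and Cldn6 were not called. The summed level of the 8 genes was 10.9 to 11.6 in Sp1+/+ and 12 to 13 in Sp1-/- Flk1+ cells, on the log2 scale. Intensities were summed before the log2, so Gsc, the brightest of the 8 in Flk1+ cells, makes up most of this sum. Gsc read 11.32 and 10.32 in Sp1+/+ and 12.71 and 11.39 in Sp1-/- Flk1+ cells. Hnf4a and Afp were below background in Sp1+/+ cells, and all 8 genes were above it in Sp1-/- cells. In HE1 the sums were 9.79 to 9.83 and 9.47 to 10.1. Cardiac markers differed as well, with a summed level of 11 to 11.4 against 12.9 to 13.1, Myl7 and Actc1 higher and Myh6 lower. Their part in the Cer1 difference was not tested. In bulk samples fewer cells of a type and less RNA per cell cannot be told apart, and this holds for each difference given here.

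**Figure D2:**
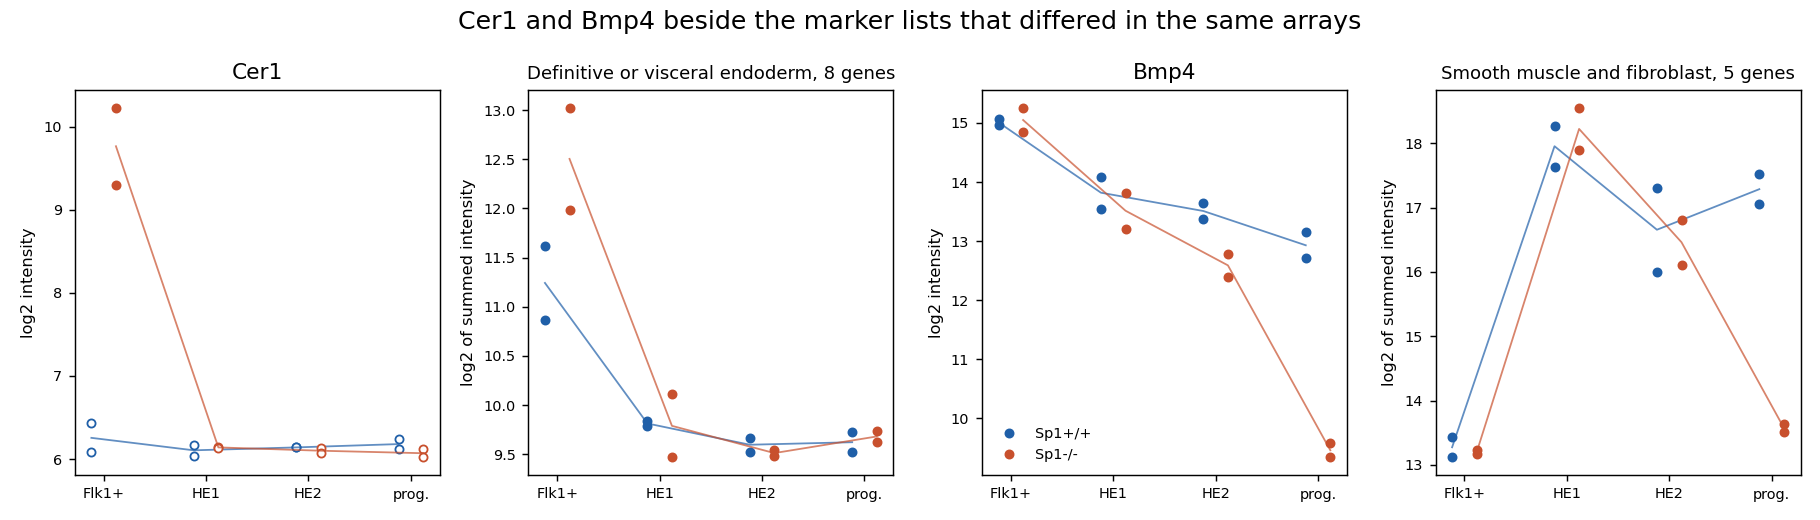
Log2 intensity of Cer1 and Bmp4 (left panel of each pair) beside the log2 of the summed intensity of endoderm markers and of smooth muscle and fibroblast markers (right panel of each pair), by population, with a point for each array, lines through the means, Sp1+/+ in blue and Sp1-/- in orange. Open points mark groups in which the Cer1 probe was not well above background on both arrays. In Sp1-/- cells the endoderm sum of 12 to 13 stands in Flk1+ cells, where Cer1 is high, and the smooth muscle and fibroblast sum of 13.5 to 13.6 in progenitors, where Bmp4 is low. Gsc makes up most of the endoderm sum in Flk1+ cells.

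Nog encodes Noggin, which binds BMP2 and BMP4 and keeps them from their receptors. It read 9.96 and 9.57 in Sp1+/+ and 10.93 and 10.80 in Sp1-/- Flk1+ cells. In HE1 the readings were 9.76 and 9.74 against 10.40 and 9.52, so that the Sp1-/- arrays lay on either side of the Sp1+/+ arrays. HE2 read 9.71 and 8.64 against 10.54 and 10.57, and progenitors 8.72 and 9.50 against 10.70 and 10.83. Nog was thus higher on every Sp1-/- array than on any Sp1+/+ array in 3 of the 4 populations. In Flk1+ cells the difference of 1.1 ± 0.36 missed the threshold (unadjusted p = 0.011, adjusted p = 0.10). In HE2 it was 1.38 ± 0.36 (2.60-fold, adjusted p = 0.049), and in progenitors 1.66 ± 0.36 (3.15-fold, adjusted p = 0.011).

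The Nog calls were not firm. The HE2 call was lost when replicate 2 of Sp1+/+ HE2 was left out (0.85) and when either Sp1-/- HE2 array was left out (unadjusted p = 0.013 and 0.014), and the progenitor call when replicate 1 of Sp1+/+ progenitors was left out (1.27, unadjusted p = 0.012). No step between neighboring populations was called for Nog, although without replicate 1 of Sp1-/- HE1 it fell past the threshold from Flk1+ cells to HE1 in Sp1-/- cells (-1.35 against -0.91 with all arrays). The change of its genotype difference from HE1 to HE2 was 1.17 ± 0.51 (adjusted p = 0.60), and it was called without that array (1.61) or without replicate 1 of Sp1+/+ HE2 (1.71). Among node and notochord markers, where Nog is also active in the embryo, Noto was not well above background in any group, and 0 of the 3 markers tested were called in any population, 1 of them (Foxj1, in HE2) having an unadjusted p of 0.05 or less.

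Markers of other cell types were read in the same HE2 arrays. On the log2 scale, the summed level of the 5 primitive erythroid markers was 15.7 to 17.0 in Sp1+/+ and 17.8 to 17.9 in Sp1-/- HE2, with 0 of the 5 called and all above background. The 6 markers of hemogenic endothelium summed to 14.7 to 15.1 against 14.3 to 14.4, again with 0 called. Of 6 markers of hematopoietic progenitors, Ptprc was higher (1.49), with sums of 14.4 to 14.8 against 15.0 to 15.1, and of 5 cardiac markers Nkx2-5 was lower (-1.50), with sums of 11.5 against 11.7 to 12.8. Their part in the HE2 differences of Nog, or of Acvrl1 and Bmper described below, was not tested.

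Smad6 encodes an inhibitory Smad with a preference for the BMP branch, and it peaked in HE1. It read 12.65 and 12.75 in Sp1+/+ and 12.31 and 12.67 in Sp1-/- Flk1+ cells, and 13.48 and 13.75 against 13.65 and 13.77 in HE1. HE2 arrays read 12.38 and 12.93 against 12.28 and 12.20, and in progenitors 11.71 and 11.28 against 10.71 and 10.98. The genotypes overlapped in the first 2 populations and not in the last 2. The difference in progenitors, -0.65 ± 0.20, was under 2-fold (unadjusted p = 0.0082, adjusted p = 0.059).

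In Sp1-/- cells Smad6 rose 2.33-fold from Flk1+ cells to HE1 (adjusted p = 0.00080), then fell 2.77-fold to HE2 (adjusted p = 0.00052) and 2.63-fold to progenitors (adjusted p = 0.00094). In Sp1+/+ cells the rise was 0.92 and the first drop -0.96, both under 2-fold, and the drop to progenitors was 2.23-fold (adjusted p = 0.011). That last call was lost without replicate 2 of Sp1+/+ HE2 (-0.89) or replicate 2 of Sp1+/+ progenitors (-0.95), and without replicate 1 of Sp1+/+ HE1 the rise and the first drop were both called (1.05 and -1.10). None of the tests of a genotype difference that changes between populations was past the threshold for Smad6.

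Smad7, which encodes an inhibitory Smad of both the BMP and the TGF-beta branches, dropped between HE1 and HE2. In the order Flk1+ cells, HE1, HE2 and progenitors, the Sp1+/+ arrays read 11.46 and 11.42, 11.80 and 11.78, 10.12 and 9.73, and 10.19 and 10.02. Sp1-/- arrays read 11.02 and 11.48, 11.93 and 11.13, 10.54 and 9.55, and 9.81 and 10.13 in the same order. The drop was 3.64-fold in Sp1+/+ cells (adjusted p = 0.0039) and 2.80-fold in Sp1-/- cells (adjusted p = 0.0073), the latter not called without replicate 2 of Sp1-/- HE2 (-0.99). The genotypes overlapped in all 4 populations, with differences of -0.26 to 0.12. The 95% intervals of these differences lay within -0.96 and 0.82, which still include values close to 2-fold.

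Id3, whose product holds back differentiation factors of the basic helix-loop-helix family, is shown with its promoter as the target gene with the widest range. The window lies at chr4:136143572-136143821 on the plus strand of GRCm38.p6, written as above:
Id3: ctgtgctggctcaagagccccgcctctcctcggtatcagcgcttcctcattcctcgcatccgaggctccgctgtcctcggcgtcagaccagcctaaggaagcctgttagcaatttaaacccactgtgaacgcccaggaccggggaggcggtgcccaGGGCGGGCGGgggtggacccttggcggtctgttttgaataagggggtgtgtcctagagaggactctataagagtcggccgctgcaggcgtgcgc
It holds 2 overlapping GC boxes, starting 94 and 90 bases before the start of the transcript. Windows were found for 6 of the 10 members, Bmp4, Bmpr1a, Id2, Id3, Smad6 and Cer1, and 5 of these hold a GC box. Of all mouse windows of this length, 32.7% hold one. The 5 windows with a box were 62.8% to 78.8% G or C, and that of Cer1 51.6%, where the median of all windows was 52.4%. Whether the boxes exceed what this base content gives was not tested.

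Id3 read 14.26 and 14.37 in Sp1+/+ and 13.80 and 14.11 in Sp1-/- Flk1+ cells, and 14.21 and 14.81 against 14.17 and 13.95 in HE1. HE2 arrays read 12.71 and 13.73 against 12.48 and 12.44, and in progenitors 11.52 and 10.44 against 9.35 and 9.27. In each population both Sp1-/- arrays lay below both Sp1+/+ arrays, but the distance was wide in progenitors alone. There the difference was -1.67 ± 0.36 (3.18-fold lower, adjusted p = 0.010), with differences of -0.36 to -0.76 in the other 3, none of them with an unadjusted p of 0.05 or less. The change of the genotype difference from Flk1+ cells to progenitors, -1.31 ± 0.51, was not called (unadjusted p = 0.026, adjusted p = 0.19), and without replicate 2 of Sp1+/+ progenitors it was called (-1.85).

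Id3 fell after HE1 in both genotypes. From HE1 to HE2 it fell 2.45-fold in Sp1+/+ cells (adjusted p = 0.043) and 3.03-fold in Sp1-/- cells (adjusted p = 0.0095). From HE2 to progenitors it fell 4.72-fold (adjusted p = 0.0072) and 8.88-fold (adjusted p = 0.00021). The Sp1+/+ step from HE1 to HE2 was not called without replicate 2 of Sp1+/+ HE1 (-0.99) or replicate 1 of Sp1+/+ HE2 (-0.78).

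Id1, the closest to a general readout of BMP receptor activity among the targets, read 13.19 and 13.14 in Sp1+/+ and 13.16 and 12.81 in Sp1-/- Flk1+ cells. HE1 read 13.64 and 13.71 against 12.99 and 12.73, without overlap, and the difference of -0.82 ± 0.21 was under 2-fold (adjusted p = 0.035). HE2 read 12.16 and 12.69 against 12.06 and 12.07. Progenitors read 12.43 and 11.90 against 10.81 and 11.17, and Id1 was 2.26-fold lower in Sp1-/- progenitors (-1.18 ± 0.21, adjusted p = 0.0039). That call was lost without replicate 1 of Sp1+/+ progenitors (-0.91) or replicate 1 of Sp1-/- progenitors (-1.0, just under 2-fold). The steps of Id1 that were called differed in place. In Sp1+/+ cells it fell 2.38-fold from HE1 to HE2 (adjusted p = 0.0038), a call lost without replicate 1 of Sp1+/+ HE2 (-0.99). In Sp1-/- cells it fell 2.11-fold from HE2 to progenitors (adjusted p = 0.0061), a call lost without replicate 1 of Sp1-/- progenitors (-0.90). The tests of whether the genotype difference of Id1 changed at the step from HE1 to HE2 (adjusted p = 0.74) or at the next one (adjusted p = 0.34) did not pass.

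Id2, which acts as well in lymphoid and myeloid lineages, had no called difference between the genotypes. In the order Flk1+ cells, HE1, HE2 and progenitors, its Sp1+/+ readings were 11.04 and 11.54, 12.28 and 11.73, 11.28 and 11.60, and 10.72 and 10.54. Sp1-/- arrays read 10.94 and 11.13, 12.28 and 11.75, 11.34 and 10.98, and 10.42 and 10.68 in the same order. The genotypes overlapped in all populations, with differences of -0.28 to 0.01 and intervals within -0.82 and 0.55. Id2 was highest in HE1 and lowest in progenitors in both genotypes, but no single step was called. The rise from Flk1+ cells to HE1 in Sp1-/- cells, 0.98 ± 0.24 (adjusted p = 0.010), was just under 2-fold and was called when either Sp1-/- HE1 replicate 2 (1.25) or Sp1-/- Flk1+ replicate 2 (1.08) was left out.

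**Figure D3:**
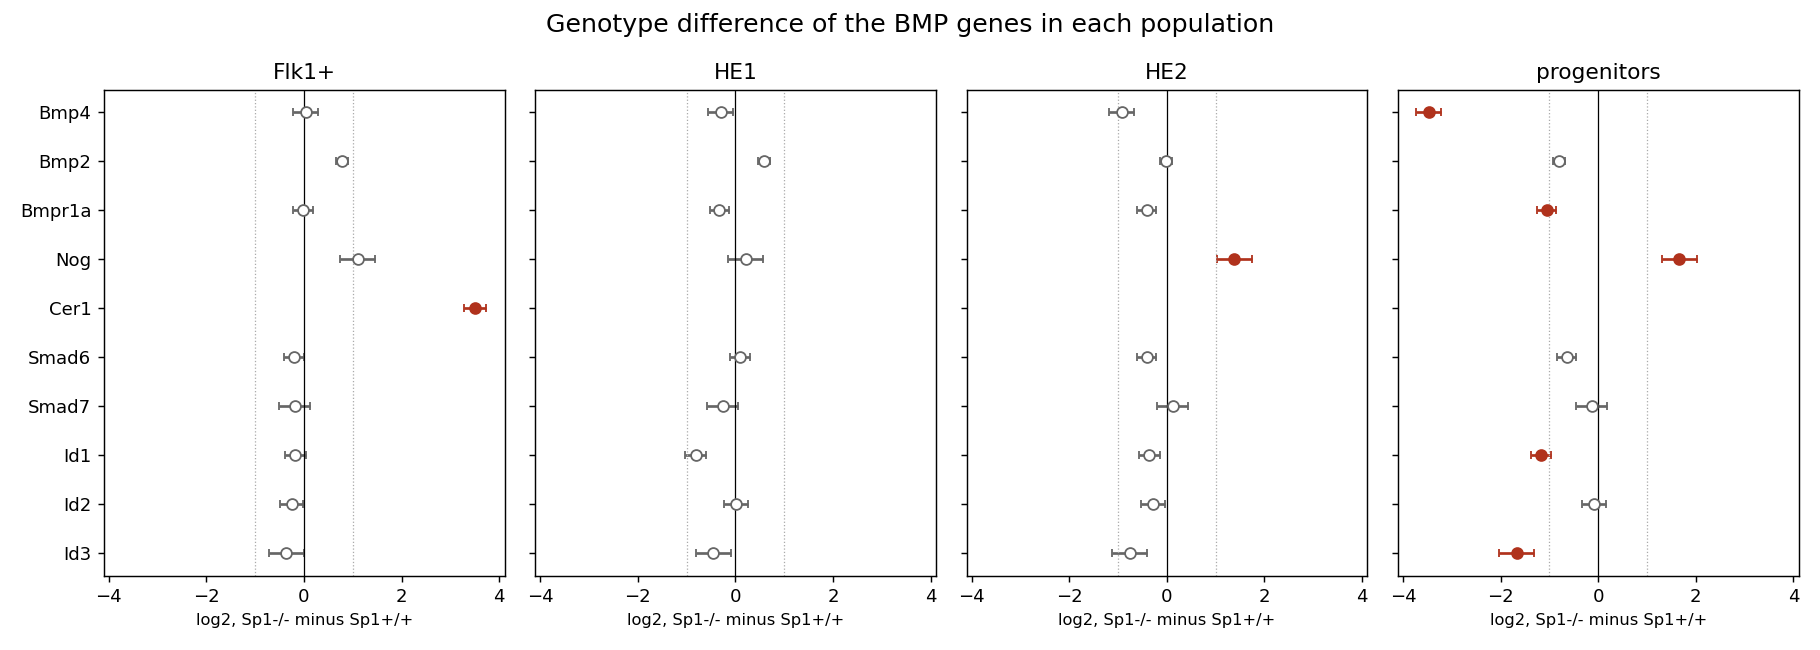
Log2 difference between Sp1-/- and Sp1+/+ cells (horizontal axis, bars are ± 1 SE from limma, 2 arrays in each group) for each member in the 4 populations. Filled red points were called and dotted lines mark 2-fold. Cer1 is left out where it was below background in both genotypes. The 1 called member in Flk1+ cells lies to the right and 4 of the 5 called in progenitors lie to the left.

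The steps of differentiation were counted for the 10 members. From Flk1+ cells to HE1, 1 member was called in Sp1+/+ cells (Bmp4, down) where 8.55% of all genes were, and 3 in Sp1-/- cells (Smad6 up, Bmp4 and Cer1 down) where 9.49% of all genes were. From HE1 to HE2, 3 members fell in Sp1+/+ cells (Id1, Id3 and Smad7, 3.30% of all genes called) and 3 in Sp1-/- cells (Id3, Smad6 and Smad7, 5.60%). From HE2 to progenitors, 3 members fell in Sp1+/+ cells (Bmp2, Id3 and Smad6, 1.74%) and 5 in Sp1-/- cells (Bmp4, Bmp2, Id1, Id3 and Smad6, 4.99%). After HE1 all members called at a step fell. Of all genes called from HE1 to HE2, 828 fell and 399 rose in Sp1+/+ cells, and 1310 fell and 772 rose in Sp1-/- cells. From HE2 to progenitors 271 fell and 376 rose in Sp1+/+ cells, and 990 fell and 865 rose in Sp1-/- cells. The median change of the members from HE2 to progenitors was -0.43 in Sp1+/+ and -1.0 in Sp1-/- cells, against -0.01 and 0.005 over all genes.

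The genotype difference was also compared between populations. From Flk1+ cells to progenitors it changed past the threshold for 4 members, Bmp4 (-3.51), Bmp2 (-1.58), Bmpr1a (-1.04) and Cer1 (-3.62), where 3.82% of all genes were called. The change of Bmpr1a had an adjusted p of 0.060 and was lost in 4 of the 8 fits that left out 1 array, namely replicate 1 of Sp1+/+ Flk1+ cells (-1.03), replicate 2 of Sp1-/- Flk1+ cells (-0.98), replicate 1 of Sp1+/+ progenitors (-0.92) and replicate 1 of Sp1-/- progenitors (-1.0). Between neighboring populations, 1 member was called from Flk1+ cells to HE1 (Cer1, 1.60% of all genes), 0 at the next step, to HE2 (0.743%), and 1 at the last, to progenitors (Bmp4, 1.59%). At the step from HE1 to HE2, Bmp2 and Nog had an unadjusted p of 0.05 or less. For Id1 the change from Flk1+ cells to progenitors, -0.995 ± 0.30, fell just short of 2-fold (adjusted p = 0.091).

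The lower levels of Bmp4, Bmpr1a, Id1 and Id3 in Sp1-/- progenitors came with other differences between the same arrays. All 5 markers of smooth muscle and fibroblasts were lower in Sp1-/- progenitors. Tagln, a cytoskeletal protein of smooth muscle, differed by -3.67, Acta2 (smooth muscle actin) by -3.71, Cnn1 by -3.96, and the collagens Col1a1 and Col3a1 by -4.70 and -2.39. Their summed level was 17.1 to 17.5 in Sp1+/+ and 13.5 to 13.6 in Sp1-/- progenitors, and none of the 5 was below background in either group. In HE2 the sums of this list were 16.0 to 17.3 and 16.1 to 16.8, and in Flk1+ cells 13.1 to 13.4 over both genotypes.

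Among the 6 markers of hemogenic endothelium, Kit, Cdh5 and Gfi1 were lower in Sp1-/- progenitors, with a summed level of 13.6 to 14.2 against 12.3 to 12.7 and Sox17 below background in Sp1-/- progenitors. Of 6 markers of hematopoietic progenitors, 1 was called, Ptprc, which encodes CD45 and was higher. The sums of that list were 15.1 to 15.2 in Sp1+/+ and 15.49 to 15.53 in Sp1-/- progenitors. Of 5 primitive erythroid markers, 1 was called, the erythroid factor Klf1, also higher. The summed level of these 5 was 18.1 to 19.3 in Sp1+/+ and 20.06 to 20.15 in Sp1-/- progenitors. Of 5 cardiac markers Nkx2-5 was lower, with sums of 11.4 to 11.6 against 9.74 to 9.98. Of 3 neural ectoderm markers Nes was lower. The part of these differences in the lower levels of the BMP genes was not tested.

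The wider pathway was read from a list of 55 further genes, all tested, 54 of which were above background on at least 1 array. The calls numbered 1 (Flk1+ cells), 2 (HE1), 2 (HE2) and 5 (progenitors), or 1.82%, 3.64%, 3.64% and 9.09% of the list, where 1.64%, 2.10%, 1.95% and 4.10% of all genes were called. Calls of 1 or 2 genes, in Flk1+ cells, HE1 and HE2, are near that background. The calls of this list were not checked by leaving out arrays. Those called in Flk1+ cells and HE1 were higher in Sp1-/- cells, and those called in HE2 and progenitors were lower. Of all genes called, 52.6%, 53.6%, 60.6% and 63.3% were lower in Sp1-/- cells from Flk1+ cells to progenitors. The median difference of the list was 0.00, 0.07, -0.05 and -0.08, close to the medians of all genes.

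Among 12 further ligands, Bmp5 and Gdf6 were called. Bmp5, which is made by early mesoderm, read 8.45 and 7.97 in Sp1+/+ and 9.43 and 9.44 in Sp1-/- Flk1+ cells (2.34-fold higher, adjusted p = 0.0047). Gdf6, a ligand related to the BMPs, read 7.41 and 7.21 in Sp1+/+ progenitors and was not well above background in Sp1-/- progenitors (6.21 and 6.15), at least 2.19-fold lower (adjusted p = 0.010).

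Among 10 receptors and co-receptors, Acvrl1 and Eng were called, and both encode endothelial proteins that act together in BMP9 and BMP10 signaling. Acvrl1 (ALK1) was lower in Sp1-/- HE2, at 8.82 and 8.90 against 9.63 and 10.72 (2.49-fold, adjusted p = 0.071). Eng (endoglin) was lower in Sp1-/- progenitors, at 8.95 and 9.41 against 11.44 and 10.44 (3.39-fold, adjusted p = 0.0053). Of 8 signal transducers 0 were called in any population, with 2, 2, 1 and 4 at an unadjusted p of 0.05 or less from Flk1+ cells to progenitors. Without the share of all genes at that p, these counts give no result about the group. In progenitors these were Smad1 (-0.92), Smad4 (-0.57), Tab1 (0.50) and Smurf2, a ubiquitin ligase that marks Smads and receptors for breakdown (-0.67, adjusted p = 0.0047).

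Among 17 antagonists and modulators, 4 were called. Fst, which encodes the activin and BMP binding protein follistatin, was 2.43-fold higher in Sp1-/- HE1 (9.13 and 8.44 against 7.69 and 7.32, adjusted p = 0.060). Bmper, a secreted modulator of BMP activity in endothelium, was 3.81-fold lower in Sp1-/- HE2 (8.34 and 7.92 against 9.91 and 10.21, adjusted p = 0.0037) and 3.66-fold lower in Sp1-/- progenitors (6.51 and 6.70 against 8.99 and 7.96, adjusted p = 0.0021). Fstl1, a secreted follistatin relative, was 5.66-fold lower in Sp1-/- progenitors (9.64 and 10.17 against 12.82 and 11.99, adjusted p = 0.00044). Bmp1 is not a ligand of this family but a protease that cleaves procollagen and the antagonist chordin, and it was 2.68-fold lower in Sp1-/- progenitors (9.91 and 9.68 against 11.39 and 11.04, adjusted p = 0.00073). In progenitors all 3 modulators called, Fstl1, Bmper and Bmp1, thus lay on the same side as Bmp4, as did 63.3% of all genes called there.

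Among 8 further targets, Runx1 was called in HE1, at 10.76 and 11.44 in Sp1-/- against 10.03 and 9.08 in Sp1+/+ cells (2.92-fold higher, adjusted p = 0.013). Runx1 encodes the factor that drives the transition from hemogenic endothelium to blood cells. No other target of the list, which also held Id4, Msx1, Msx2, Atoh8, Gata2, Tal1 and Hhex, was called in any population. At an unadjusted p of 0.05 or less there were 3, 1, 2 and 2 of them, a count without a share of all genes to set it against. In the same HE1 arrays 3 of 5 cardiac markers, Tnnt2, Myl7 and Actc1, were higher in Sp1-/- cells. Of 6 markers of hematopoietic progenitors, Runx1 itself and Gfi1b were higher. Primitive erythroid sums were 11.7 to 16.1 in Sp1+/+ and 14.0 to 14.1 in Sp1-/- HE1. Their part in the HE1 differences of Fst and Runx1 was not tested.

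**Figure D4:**
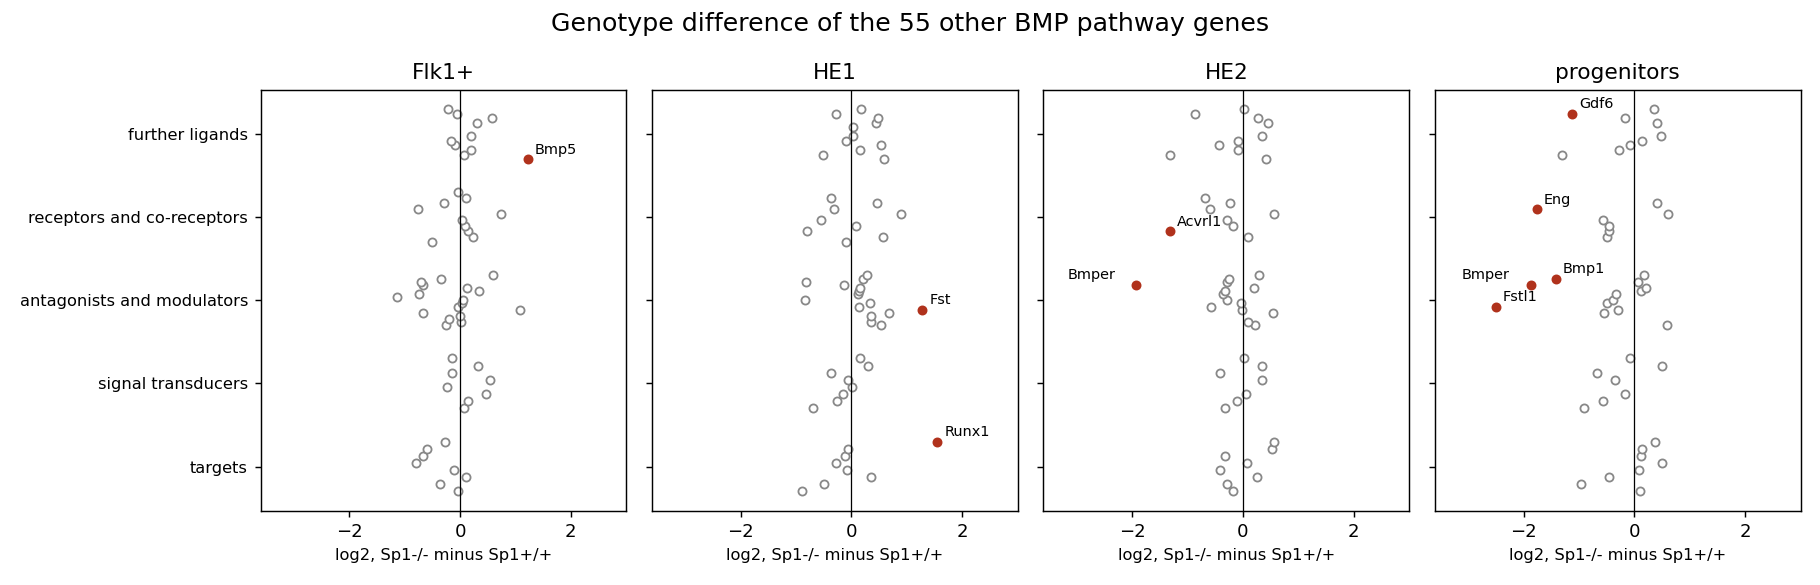
Log2 difference between Sp1-/- and Sp1+/+ cells (horizontal axis) for the 55 further pathway genes, grouped by role (rows), in the 4 populations. Filled red points with a name were called, open points were not, and genes below background in both genotypes are left out. Called genes lie to the right in Flk1+ cells and HE1 and to the left in HE2 and progenitors. They number 1, 2, 2 and 5 from Flk1+ cells to progenitors, and 60.6% and 63.3% of all genes called in HE2 and progenitors were lower.

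For each member the genes with the most similar pattern over the 16 arrays were sought among 20102 other named genes, as a description of arrays that share populations and slides. Bmp4 was most like Igf2bp2 (Pearson r = 0.972), Bmp2 like Laptm4b (0.981), Bmpr1a like Kank2 (0.979), Nog like Ftdc2 (0.941) and Cer1 like Tctex1d1 (0.984). Smad6 was most like Fbxl7 (0.984), Smad7 like Nckap5 (0.949), Id1 like Lpar4 (0.968), Id2 like Uaca (0.949) and Id3 like the hyaluronan synthase gene Has2 (0.986). Evi5 was among the 3 most similar genes of both Id2 and Smad6.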

How the data were processed

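RNA of 16 samples was labelled with Cy3 and hybridised to one-color Agilent arrays, 2 for each of 8 groups of genotype and population. Per the labels, signals were extracted with Agilent Feature Extraction 10.7.1.1 (the file headers read 10.7.3.1). The scanner output deposited by the authors holds spot intensity. The main values were the log2 values deposited by the authors, which are normalized between arrays. Computation from the intensity of spot and local background matched them to within 0.005 when normexp of limma, offset 50, was followed by quantile normalization, whereas the Supplementary Methods name an offset of 16 (difference up to 1.63). The offset makes differences of dim genes smaller.

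Of 62976 spots, control spots were left out, 95 to 182 outlier spots per array were set to missing and spots of a probe were averaged, giving 55681 probes. A log2 minimum of 6 on at least 1 array kept 55595 of them, so it removed little from the deposited values. Of 37932 target names 20869 were named through RefSeq accessions (GRCm38.p6) and 12 through symbols, and the brightest probe by mean over all arrays stood for a gene. limma 3.58.1 in R 4.3.3 fitted all 8 groups together, with 8 residual degrees of freedom before moderation, and the steps were tested on simulated data. The number of arrays limits the precision. Called means an unadjusted p of 0.01 or less and 2-fold. Well above background is the scanner software's own mark, and where a group had none, folds are lower bounds against the larger of the floor (5.85 to 6.06) and the probe's own value.

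The members and lists were chosen with earlier results of these data known, and the 3 comparisons of genotype differences between neighboring populations were added after the values were seen. Named genes were all members, every pathway list gene called between genotypes and the 3 genes most like each member. Promoter windows came from RefSeq. Alternatives covered the background correction, normalization, probe rule, filters, thresholds, Student's t-test, the replicate number and each array left out.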

Additional observations from a re-analysis of the deposited data

Results flagged for a closer look

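Genotype differences that changed between populations were tested as interaction terms in limma for the 10 members. Populations compared were Flk1+ cells and progenitors, and the neighbors at each of 3 steps, which were added after the values were seen. Of these terms, 6 passed an unadjusted p of 0.01 and 2-fold. Of all genes, 3.82% passed from Flk1+ cells to progenitors, and 1.60%, 0.743% and 1.59% at the steps to HE1, HE2 and progenitors. From Flk1+ cells to progenitors the difference between Sp1-/- and Sp1+/+ cells changed by -3.51 ± 0.36 for Bmp4 (adjusted p = 0.00078), by -1.58 ± 0.18 for Bmp2 (adjusted p = 0.0010), by -1.04 ± 0.28 for Bmpr1a (adjusted p = 0.060) and by -3.62 ± 0.32 for Cer1 (adjusted p = 0.00052). From Flk1+ cells to HE1 that of Cer1 changed by -3.48 ± 0.32 (adjusted p = 0.0012), and from HE2 to progenitors that of Bmp4 by -2.55 ± 0.36 (adjusted p = 0.013). Both changes of Cer1 restate its difference in Flk1+ cells, since it was below background in both genotypes in HE1 and progenitors. Groups of 2 arrays are too small to look for outlying samples.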

How the results depend on the processing

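No member difference with an unadjusted p of 0.05 or less reversed under the alternatives run. Of the other genotype differences, those of Bmp4 in Flk1+ cells (0.04 to -0.36), Smad7 in HE2 (0.12 to -0.022), Id2 in progenitors (-0.08 to 0.048) and Cer1 in HE2, where it was below background (-0.04 to 0.31), changed sign with processed signals. With intensities corrected at an offset of 16, 2 genes of the pathway list were called between genotypes in Flk1+ cells in place of 1. Of all genes, 2.79% were called there under that setting, against 1.64% with the deposited values. With processed signals scaled to the 75th percentile, 2 members were called in HE2, where Bmp4 was added (-1.14), and the pathway list gave 4 calls in HE2 and 8 in progenitors. Under that scaling the median of all genes was up to 0.128 (HE1) and 4.04%, 6.10%, 5.43% and 9.66% of all genes were called from Flk1+ cells to progenitors, and 38.3% of genes called in HE1 and 47.6% in HE2 were lower in Sp1-/- cells, against 53.6% and 60.6% of the deposited values.

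The number of members called in Flk1+ cells was 2, Nog being added (1.1), when only probes marked above background throughout at least 1 group were kept. Under that filter 2.01% of all genes were called in Flk1+ cells. The number was also 2 with the arrays of the population alone. With those arrays alone the number in HE2 was 0. An adjusted p of 0.01 in place of the unadjusted one left 3 members in progenitors and 0 in HE2. With Student's t-test, which the methods name for comparing genotypes but not for the arrays, 0 members in Flk1+ cells, 0 in HE2 and 1 in progenitors were called, and 0 in each after Benjamini-Hochberg adjustment. In HE1 the number was 0 under every alternative run.

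Leaving out 1 array at a time gave 0 to 0 members in HE1, 1 to 1 in Flk1+ cells, 0 to 2 in HE2 and 2 to 5 in progenitors. For steps in Sp1+/+ cells the ranges were 0 to 2 from Flk1+ cells to HE1, 1 to 4 from HE1 to HE2 and 2 to 3 from HE2 to progenitors, and for Sp1-/- cells 3 to 4, 2 to 5 and 4 to 6. The change of the genotype difference was called for 3 to 6 members from Flk1+ cells to progenitors, 1 to 1 from Flk1+ cells to HE1, 0 to 1 from HE1 to HE2 and 1 to 2 from HE2 to progenitors. Calls were gained in 21 of these fits of single values and lost in 19. Bmp4 was called in HE2 without Sp1+/+ HE2 replicate 2 (-1.06) or Sp1-/- HE2 replicate 1 (-1.11). In Sp1-/- cells Bmp4 and Id2 were called from HE1 to HE2 without HE1 replicate 2 (-1.23 and -1.12) or HE2 replicate 1 (-1.12 and -1.04), and Bmpr1a from HE2 to progenitors without HE2 replicate 2 (-1.18). The change of the Id1 genotype difference from Flk1+ cells to progenitors was called without Sp1-/- Flk1+ replicate 2 (-1.17), Sp1+/+ progenitors replicate 2 (-1.26) or Sp1-/- progenitors replicate 2 (-1.18), and from HE2 to progenitors without Sp1+/+ HE2 replicate 2 or Sp1+/+ progenitors replicate 2 (-1.08 each).

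The replicate block, a term for the replicate number, gave the same counts, 1, 0, 1 and 5 members between genotypes in Flk1+ cells, HE1, HE2 and progenitors, and changed no call of a member. With it 1.68%, 2.15%, 1.97% and 4.14% of all genes were called. Samples with the same number deviated together in 2 populations (r = 0.226 in Flk1+ cells and 0.285 in HE1) and apart in HE2 (-0.173) and progenitors (-0.112), and between populations of 1 genotype r ran from -0.151 to 0.503, so no pairing held throughout and the labels give none. With that number crossed in the Sp1-/- arrays, chosen after seeing the data, 1 member was called in HE2 and 5 in progenitors.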
